A study of Mus musculus with 3 samples.

Results

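Epidermal growth factor (EGF) family ligands and their ErbB receptors were followed in mouse palatal tissue before, during and after fusion of the palatal shelves. The genes were taken by name: the ligand genes *Hbegf*, *Areg*, *Ereg*, *Tgfa*, *Btc*, *Epgn* and *Nrg1*, and the receptor genes *Egfr*, *Erbb2* and *Erbb3*, 10 in all, among 18193 genes with a probe set. Of these, 9 had a probe set named for them alone, with 20 probe sets among 45037 on the array other than controls. *Areg* had no probe set named for it in the annotation used here and was not analysed here. Maxillae were removed from ICR fetuses, labelled female, at embryonic day 14 and kept in suspension culture in BGJb medium under 95%O2/5%CO2. The methods name mature female mice and give no sex for the fetuses. Palatal tissue was dissected after 5 h (before fusion), 24 h (during fusion) and 60 h (after fusion), and 1 Affymetrix Mouse Genome 430 2.0 array was hybridized per stage. The dissected piece was the edge of the shelves at 5 h and the midline tissue at 24 h and 60 h, so the stage, the hours in culture and the piece of tissue cannot be told apart.

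The EGF family ligands are made as membrane-bound precursors that ADAM proteases cut from the cell surface. The freed ligand binds an ErbB receptor, receptors pair, and the pair signals through the Ras-ERK and PI3K pathways, which in turn induce inhibitors that switch the receptor off. EGFR binds HB-EGF, epiregulin, TGFα, betacellulin and epigen, whereas ErbB3 binds neuregulins and depends on ErbB2 as its partner. In the palate, EGFR is needed for normal closure, and mice without it can have cleft palate. Added EGF keeps medial edge epithelial cells alive in cultured mouse palates.

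Since each stage has 1 array, there are no replicates and no p-value is given. Signals are MAS5 values on a linear scale, set to one trimmed mean on all arrays. The background floor of an array, the 95th percentile of its 81 sensory receptor probe sets, was 19.4 on the first array, 13.3 on the second and 14.7 on the third. A signal under the floor was raised to it and its ratio is given as a bound, and a ratio past 2-fold was counted as a difference. Values of a gene are those of its brightest probe set unless others are named. The arrays offer no spread other than the one between the probe sets of a gene, whose SD on the log2 scale was 0.37, 0.46 and 0.44 in the comparisons of during with before, after with before and after with during fusion. Most of the ligand probe sets were dim, and among probe sets with a mean signal under 100 the SD was 0.46, 0.54 and 0.54. Among those of 100 or more, which holds the receptor genes, it was 0.25, 0.36 and 0.32.

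*Hbegf* was higher during and after fusion, *Tgfa* was just past 2-fold and *Epgn* was higher after fusion, while the 3 receptor genes stayed within 2-fold of their level before fusion. During fusion, 2 of 9 members were over 2-fold higher than before it, *Hbegf* and *Tgfa*, and none was lower. Over all genes in that comparison, 5.45% were higher and 3.19% lower. After fusion, 3 of 8 members above the floor on at least 1 of the arrays were higher than before, *Hbegf*, *Epgn* and *Tgfa*, and none was lower, against 12.6% of all genes higher and 9.58% lower. After fusion against during fusion, 1 of 9 members was higher, *Epgn*, and none was lower, against 8.73% and 5.08%. By probe set, 2 of 17 were higher during fusion than before it, against 4.72% of all probe sets, and 3 of 16 after fusion, against 9.69%. Of 18 probe sets, 2 were higher after than during fusion, against 6.61%. No member probe set was lower in these 3 comparisons, where 3.22%, 10.1% and 7.08% of all probe sets were. Over members with a ratio or bound, the median log2 ratio to before fusion was at least 0.25 during fusion and at least 0.14 after it. For all genes it was -0.02 and -0.07. In these and the later medians of lists a bound counts at its value. Both comparisons with the stage before fusion use the same array. In tissue of mixed cells, more cells of a type and more RNA per cell cannot be told apart.

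**Figure D1:**
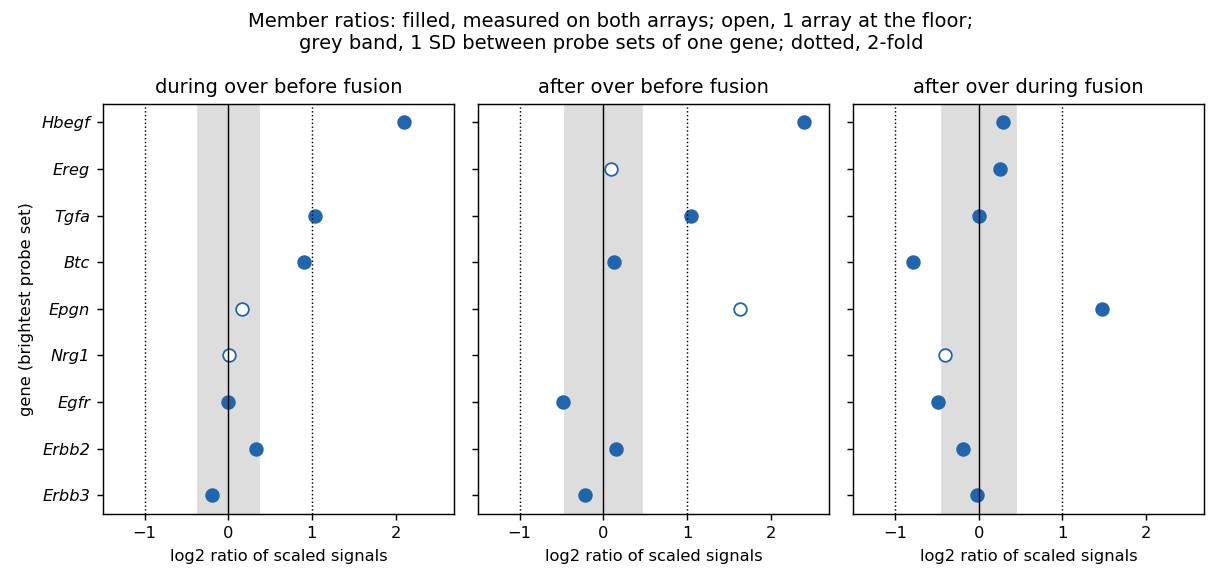
Log2 ratio of the scaled signals (horizontal axis) for the brightest probe set of each of the 9 members (vertical axis) in each of the 3 comparisons. Filled points were above the floor on both arrays and open points on 1 of them, so that these mark bounds, grey bands span 1 SD between probe sets of one gene on either side of 0 and dotted lines mark 2-fold; *Hbegf* is the filled point farthest to the right in both comparisons with the stage before fusion, at 2.10 and 2.39, and *Epgn* in that of after with during fusion, at 1.47.

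*Hbegf*, which encodes heparin-binding EGF-like growth factor, had the largest ratios to the stage before fusion among the members above the floor on both arrays. *Epgn*, *Ereg* and *Nrg1* were under the floor before fusion, so that they have bounds or no ratio and cannot be ranked beside *Hbegf*. Its brightest probe set had 36.1 as its scaled signal before fusion, 155 during and 189.8 after it. It was 4.28-fold higher during and 5.25-fold higher after fusion than before it. On the log2 scale these ratios, 2.10 and 2.39, were several times the SD between probe sets. That SD is pooled over genes within the same arrays and does not measure variation between arrays or animals. The 2 *Hbegf* probe sets lay farther apart than it, the other having log2 ratios of 0.54 and 0.93. Among genes above the floor on both arrays, *Hbegf* ranked 76 of 12124 during and 247 of 12007 after fusion. Between the arrays during and after fusion the ratio was 1.23, within the spread between probe sets. The other *Hbegf* probe set had scaled signals of 33.2, 48.3 and 63.1, which is 1.45-fold higher during and 1.90-fold higher after fusion. Both probe sets thus lay lowest before and highest after fusion, but 1 of the 2 did not reach 2-fold. The median over both was 2.495 during and 3.16 after fusion. With the arrays scaled in 6 ways, the brightest probe set was between 3.53-fold and 5.20-fold higher during fusion and between 4.05-fold and 5.94-fold higher after it.

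The 5 genes whose ratios to the stage before fusion lay nearest to those of the brightest *Hbegf* probe set, among 11839 others above the floor on all 3 arrays, were *Pkp1*, *Asprv1*, *Gadd45b*, *Ak1* and *Mreg*. *Pkp1* encodes a plakophilin of desmosomes, with ratios of 4.21 during and 5.49 after fusion. *Asprv1*, which encodes a protease of the upper epidermis, had ratios of 4.06 and 5.02, and the stress-induced gene *Gadd45b* had ratios of 3.97 and 5.42. *Ak1* had ratios of 3.94 and 5.26, and *Mreg* of 3.83 and 5.645. This likeness rests on 3 arrays, and 9 genes lay within 0.25 log2 units of *Hbegf* in this measure. It also rests on 1 *Hbegf* probe set. The other, with ratios of 1.45 and 1.90, lay much farther than that from these genes.

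**Figure D2:**
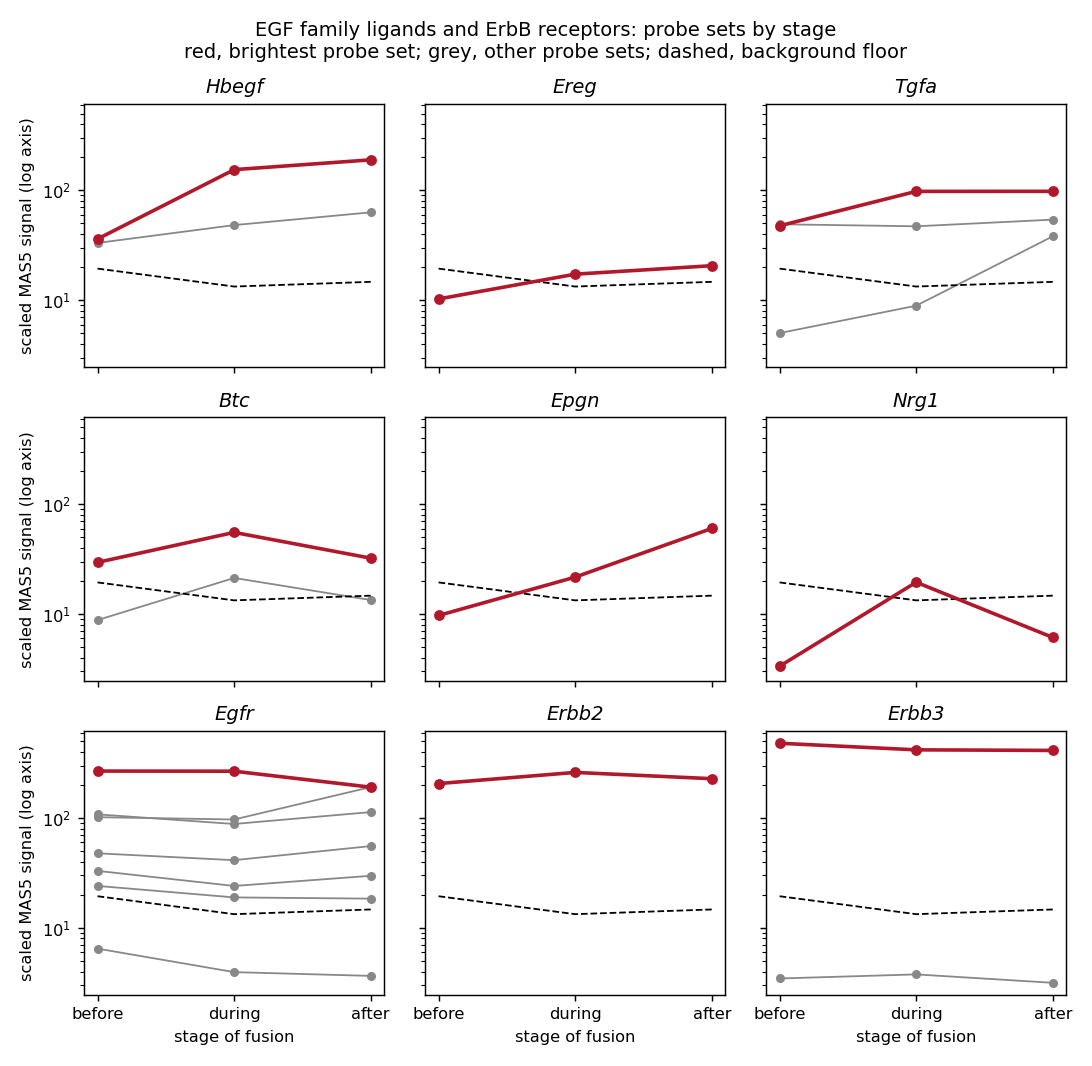
Scaled MAS5 signal (log axis) of all 20 probe sets of the 9 members at the 3 stages of fusion (1 array each). Red lines show the brightest probe set of each gene, grey lines the others and dashed lines the background floor; *Hbegf* goes from 36.1 before to 189.8 after fusion, whereas *Erbb2* and *Erbb3* run nearly level.

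*Tgfa* encodes TGFα, a ligand of EGFR made by many epithelia. Its brightest probe set gave scaled signals of 47.6, 98.0 and 98.1 at the 3 stages in turn. The ratio to before fusion was 2.06 at both later stages, just past 2-fold, and it lay between 1.70 and 2.499 during and between 1.59 and 2.33 after fusion over 6 scalings. A second *Tgfa* probe set had signals of 49.2, 47.1 and 54.15, with ratios of 0.958 during and 1.10 after fusion. The third, which is marked as shared by more than 1 transcript, was under the floor before and during fusion, at 5.02 and 8.91, and had a signal of 38.2 after fusion. It was at least 1.97-fold higher after than before fusion and at least 2.87-fold higher after than during fusion. The 3 probe sets therefore did not give one course, and the median over those with a ratio was 1.405 during fusion and at least 1.97 after it, which leaves the side of 2-fold after fusion unsettled.

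*Epgn* encodes epigen, an epithelial mitogen that binds EGFR. Its only probe set was under the floor before fusion, with a scaled signal of 9.70, and had signals of 21.7 during and 60.2 after fusion. Against the stage before fusion it was at least 1.12-fold higher during fusion, and after it the bound was at least 3.10-fold. After fusion it was 2.78-fold higher than during fusion, where both signals were above the floor, and this ratio ranked 534 of 12789 genes. The signal stood in the order before, during, after. Which step was the larger is not settled, since the ratio of during to before fusion is only a lower bound. With the floor left out, the ratios were 2.235 during and 6.20 after fusion, whereas with the median of each array as its floor the bound after fusion was 2.19.

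*Btc*, which encodes betacellulin, was highest during fusion. Its brightest probe set had scaled signals of 29.5, 55.4 and 32.25 at the 3 stages in turn. The ratio to before fusion was 1.875 during and 1.09 after fusion, and that of after to during fusion was 0.582, so that no comparison passed 2-fold as scaled here. The first of these ratios passed it with the signals as deposited, at 2.28, and with the hybridization controls, at 2.03. The other *Btc* probe set was above the floor during fusion alone, with signals of 8.81, 21.3 and 13.4, at least 1.10-fold higher during than before fusion. Both probe sets were highest on the array during fusion.

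The signals of *Ereg* and *Nrg1* lay close to background. *Ereg*, which encodes epiregulin, had scaled signals of 10.3, 17.3 and 20.6 in the same order, of which the first was under the floor. It was at least 1.06-fold higher after than before fusion, and no fold can be given during fusion, since that signal was under the floor of the array before fusion. With the floor left out the ratio after fusion was 2.01. *Nrg1*, which encodes neuregulin 1, a ligand of ErbB3 and ErbB4, is represented by 1 probe set with signals of 3.34, 19.5 and 6.12, above the floor during fusion alone. It was at least 1.00-fold higher during than before fusion, a bound that gives no difference. With the floor left out the ratio was 5.82, taken between a signal under the floor and one close to it.

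By their brightest probe sets, the 3 receptor genes were within 2-fold in each comparison, but the probe sets of *Egfr* did not share one direction after fusion. *Erbb3* encodes the receptor of neuregulins whose own kinase is nearly inactive, and its brightest probe set had scaled signals of 479.8 before, 418 during and 413 after fusion. Its ratios to before fusion were 0.871 and 0.8605. *Erbb2* encodes the receptor that binds no ligand of its own and serves as partner, and its only probe set had signals of 206 before, 260.3 during and 228 after fusion, with ratios of 1.26 and 1.11. On the log2 scale the ratio of *Erbb2* during fusion, 0.34, was larger than the SD of 0.25 between probe sets as bright. As scaled here, the other 3 were within the SD of their comparison. The ratio of *Erbb2* during fusion depends on the scaling. It was 0.22 with one median and 0.06 with the poly-A controls, under that SD, and 0.62 with the signals as deposited. The signals of the second *Erbb3* probe set, from 3.16 to 3.77, did not reach the floor at any stage.

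*Egfr* has 7 probe sets, of which 6 were above the floor on every array and 1 was under it on every array. The brightest had scaled signals of 267.8 before, 267 during and 191 after fusion, with ratios to before fusion of 0.997 and 0.7135. The latter, -0.49 on the log2 scale, was larger in size than the SD of 0.36 between probe sets as bright, but with the signals as deposited it was -0.31. During fusion the 6 ratios lay between 0.729 and 0.997, all on the lower side and none past 2-fold. Under the signals as deposited, the brightest had a ratio of 1.21 during fusion, so the side depends on the scaling. After fusion the 6 probe sets split, with 3 higher and 3 lower than before fusion, from 0.7135 to 1.88. The highest of these belonged to a probe set with signals of 101.8, 97.0 and 191, which was also 1.97-fold higher after than during fusion. The median over the 6 was 0.841 during and 0.973 after fusion, and for after over during fusion it was 1.26, while the brightest probe set had 0.716. The direction for *Egfr* between the last stages thus differs with the probe set read.

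The promoters of *Tgfa* and *Epgn*, both ligand genes past 2-fold after fusion, are shown. That of *Hbegf*, also past 2-fold, is not reported here. The 250 bases before each RefSeq start are printed 5′ to 3′ on the gene's strand, and capitals mark matches to 5 short motifs searched on both strands. The TATA box was searched as TATAAA and the GC box as GGGCGG. The site of AP-1 was searched as TGANTCA, the cyclic AMP response element (CRE) as TGACGTCA and the grainyhead site as AACNGGTT. *Epgn* lies on chromosome 5 and *Tgfa* on chromosome 6.
Epgn (GRCm38.p6, chr5:91027267-91027516, + strand): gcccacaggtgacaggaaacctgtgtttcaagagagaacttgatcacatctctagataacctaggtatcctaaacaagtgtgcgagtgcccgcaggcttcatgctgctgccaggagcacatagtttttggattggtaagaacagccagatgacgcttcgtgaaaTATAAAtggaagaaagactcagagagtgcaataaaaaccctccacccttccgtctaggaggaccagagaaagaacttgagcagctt
Tgfa (GRCm38.p6, chr6:86194972-86195221, + strand): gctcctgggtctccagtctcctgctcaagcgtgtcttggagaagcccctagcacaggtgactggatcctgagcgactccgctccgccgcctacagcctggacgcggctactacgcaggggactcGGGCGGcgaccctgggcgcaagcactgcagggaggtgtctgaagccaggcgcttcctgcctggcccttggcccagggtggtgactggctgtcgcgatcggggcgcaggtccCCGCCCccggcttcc
The *Epgn* window holds TATAAA starting 86 bases before the start, a motif found in 12.4% of 32851 promoter windows of this length. The *Tgfa* window holds GC boxes starting 126 and 15 bases before the start, a motif found in 32.7% of the windows. Neither window matched AP-1, CRE or grainyhead, which were found in 6.75%, 1.55% and 1.79% of windows. These matches describe the letters and were not tested as binding sites.

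Of the 5 further members of the family, the 3 with a ratio, *Egf*, *Nrg2* and *Nrg4*, were within 2-fold in each comparison. *Egf* had scaled signals of 26.75, 25.0 and 21.4, with a ratio to before fusion of 0.934 during fusion and 0.80 after it. *Nrg2* and *Nrg4*, which encode further neuregulins, had ratios of 1.355 and 0.667 during and 1.23 and 0.820 after fusion. The neuregulin gene *Nrg3* and the receptor gene *Erbb4* were under the floor on every array and have no ratio, with *Nrg3* at 8.25, 9.18 and 14.3 and *Erbb4* at 5.69, 0.735 and 6.02.

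Genes that act on the ligands before they reach the receptor were listed as 16 shedding and trafficking genes, of which *Bace2* was under the floor before fusion and the others were above it on every array. Of these, 4 were higher during fusion with none lower, and after fusion there were 4 higher and 1 lower. The median log2 ratios were at least 0.42 during and 0.57 after fusion. The shares of all genes were 5.45% higher and 3.19% lower during fusion, and 12.6% and 9.58% after it. *Rhbdf2* encodes an iRhom that carries the sheddase ADAM17 to the cell surface, and it had scaled signals of 61.3, 144 and 188 and ratios of 2.35 and 3.07. The brighter *Rhbdf1*, of the same list, had signals of 434.3, 557.2 and 402.4 and ratios of 1.28 and 0.927. *Adam17* itself, the main sheddase of TGFα, amphiregulin and HB-EGF in mouse cells, had signals of 250.4, 235 and 292. *Adam8*, a metalloprotease of leukocytes and other cells, had ratios of 2.91 during and 5.67 after fusion, with signals of 23.1, 67.2 and 130.9. *Adam12* had a ratio of 2.99 during fusion and 1.89 after it. *Cd9* encodes a tetraspanin that associates with the HB-EGF precursor, and its signals were 751 before, 1627 during and 1999 after fusion, with ratios of 2.17 and 2.66. *Adam19* was lower after fusion, with a ratio of 0.43 for its brightest probe set. Its other probe set went the opposite way, with signals of 13.7, under the floor, then 25.6 and 22.9, at least 1.18-fold higher after than before fusion. With the poly-A controls as the scale, *Rhbdf2* and *Cd9* were under 2-fold during fusion, at 1.94 and 1.79.

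The 22 genes of receptor inhibition and feedback were nearly balanced, with median log2 ratios of 0.00 during and -0.03 after fusion. During fusion none was higher and 1 was lower, *Spry4*, an inhibitor of Ras-ERK signaling, with a ratio of 0.476, which was within 2-fold with the hybridization controls, at 0.516, with the signals as deposited, at 0.578, and with the floor added, at 0.5745. After fusion 1 was higher, *Socs3*, a feedback inhibitor of cytokine receptors, and 1 was lower, *Dusp6*, a phosphatase of ERK. These counts of 0 or 1 in 22 genes lie under the shares of all genes, 5.45% higher during fusion and 12.6% higher and 9.58% lower after it, except for the 1 lower during fusion, where the share was 3.19%. *Socs3* had signals of 174, 195 and 858.5 and a ratio of 4.93 after fusion. *Dusp6* had signals of 956, 599 and 358 and ratios of 0.627 and 0.375. Against the array during fusion, *Socs3* and *Dusp5* were higher after it, with ratios of 4.41 and 2.72, as were 8.73% of all genes. *Dusp5*, a dim gene with a signal of 19.5 during fusion, was at least 1.79-fold higher with the median of each array as its floor and 1.95-fold with the floor added.

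Of 28 adaptors and transducers of the Ras-ERK and PI3K pathways, 23 had a probe set named for them alone. During fusion 1 was higher and none lower, and after fusion 2 were higher and 1 was lower, with median log2 ratios of -0.03 and -0.05. Such counts are under the shares of all genes, 5.45% higher and 3.19% lower during fusion and 12.6% and 9.58% after it, and are no result about the list. *Stat3*, a transcription factor gene downstream of EGFR and of cytokine receptors, had signals of 285, 615.5 and 930.0 and ratios of 2.16 and 3.26. During fusion it was under 2-fold with scaling to one median, at 1.995, and with the poly-A controls, at 1.78, and the median over its probe sets was at least 1.64. *Grb7*, an adaptor of ErbB2, had a ratio of 2.01 after fusion, and *Pik3r1*, a regulatory subunit of PI3K, 0.476. *Grb7* was under 2-fold with the hybridization controls, at 1.94, with the poly-A controls, at 1.55, and with the floor added, at 1.89. *Pik3r1* was within 2-fold with the signals as deposited, at 0.538, and with the median over its probe sets, at 0.551.

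Among 19 genes that ERK signaling induces, 7 of 17 above the floor were higher during fusion with none lower, and after fusion 11 of 18 were higher with 2 lower. Of all genes, 5.45% were higher and 3.19% lower during fusion, and 12.6% and 9.58% after it. The median log2 ratios were at least 0.58 and at least 1.58. *Fos* had signals of 74.7, 425 and 1911, with ratios of 5.69 and 25.6. *Junb*, which like *Fos* encodes a subunit of AP-1, had signals of 38.9, 120.3 and 288 with ratios of 3.09 and 7.405. *Egr1* had signals of 263, 932 and 1818 with ratios of 3.55 and 6.92, and *Ier3* had ratios of 4.80 and 6.38. *Etv5*, a transcription factor gene that answers to FGF and ERK signaling, was lower after fusion, with a ratio of 0.446, and *Phlda1* had a ratio of 0.446 as well. With the signals as deposited both were within 2-fold, at 0.504 and 0.5045. Several of these genes are also known as stress-induced, and *Atf3*, one of them, had signals of 53.1, 57.5 and 317.7. *Maff*, which encodes a small Maf protein, had signals of 27.2, 28.2 and 81.2 and was 2.88-fold higher after than during fusion. The list was chosen with earlier values of some of its genes known, and its direction is not independent evidence.

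**Figure D3:**
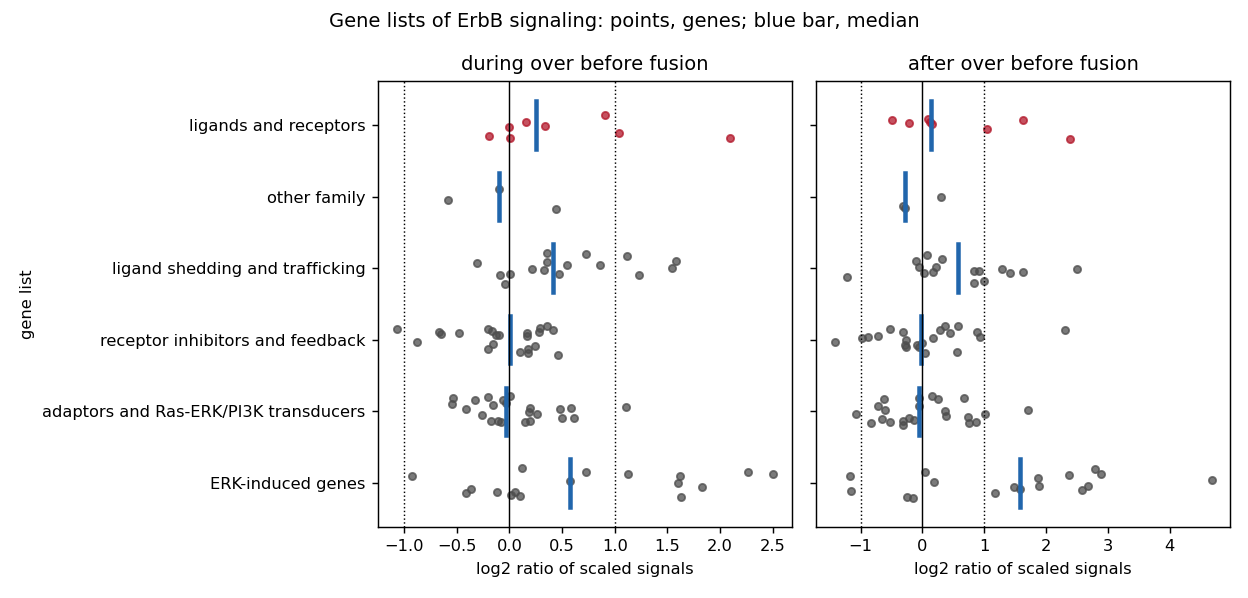
Log2 ratio to the array before fusion (horizontal axis) of each gene of 6 lists of ErbB signaling (vertical axis), during fusion on the left and after fusion on the right; blue bars mark the median of a list and dotted lines 2-fold. The ERK-induced genes lie farthest to the right after fusion, with a median of at least 1.58, and the inhibitors and the transducers are centred near 0.

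Markers of several cell types moved between the arrays as well, and the shares of all genes to read them against are 5.45% higher and 3.19% lower during fusion, and 12.6% and 9.58% after it. Of 16 epithelial markers, 6 were higher during fusion and 9 after it, with none lower, and none was under the floor on any array. Their summed scaled signal was 13705.8 before, 24411.7 during and 32479.9 after fusion. The 6 keratin genes among them made up most of the difference, with sums of 7565.2, 16278.0 and 24332.6, while the other 10 had sums of 6140.5, 8133.7 and 8147.3, and *Trp63*, the transcription factor gene of basal epithelia, had ratios of 0.688 and 0.613. Of 7 periderm markers, 5 were higher at each later stage, with sums of 2686.6, 10629.9 and 11400.1. The 4 keratin genes of this list had sums of 1375.9, 8966.2 and 10359.2 and the other 3 of 1310.8, 1663.8 and 1040.9. These 3 did not share one course. *Lypd3* had ratios of 3.44 and 3.79, *Grhl3* of 0.933 and 0.625, and *Arhgap29*, the brightest of them, of 1.21 and 0.656. Of 12 macrophage markers, 6 were higher during and 11 after fusion, with sums of 812.4, 1687.9 and 3748.5 and 1 under the floor before fusion. Of 12 palatal mesenchyme markers, 5 were lower during fusion and 8 after it, with none higher and with sums of 12172.2, 6667.1 and 3941.1.

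Of the skeletal muscle markers above the floor, 8 of 11 were lower during fusion and 9 of 10 after it, with sums of 1557.0, 456.3 and 203.1. Of 10 endothelial markers, 6 were lower during fusion and 2 after it, with sums of 3216.0, 1276.4 and 1248.8. Of 9 neuron markers above the floor, 1 was higher and 3 were lower at each later stage, with sums of 917.1, 731.4 and 895.3. The Schwann and crest glia markers, a cell type rich in *Erbb3*, had sums of 1181.6, 920.0 and 1154.3, with 2 of 10 lower at each later stage. *Pmp22* and *Mbp*, which encode myelin proteins, had sums of 507.7, 482.4 and 830.0, whereas the other 8 had sums of 673.8, 437.6 and 324.3. Among these 8, *Ngfr* alone had signals of 379.2, 134.7 and 119.5, so that their sum during fusion rests largely on this gene. *Sox10*, the transcription factor gene of crest glia, had ratios of 0.67 and 0.362, whereas *Fabp7* had ratios of 1.465 and 0.579. Before fusion 3 of the 10 markers were under the floor. The splits of these lists were made after their values were seen. The part of these cell types in the ratios of *Hbegf*, *Tgfa* and *Epgn*, and in those of *Erbb3*, was not tested.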

How the data were processed

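RNA of palatal tissue was hybridized to 3 arrays, 1 per stage. Per the labels and the methods, the authors computed the deposited intensity values in GeneChip Operating Software, with background corrected by MAS5. They hold 1 linear signal per probe set, and a scaling target is not given in the sources used here. Of 45037 probe sets other than controls, 34945 name 1 gene, 932 several and 9160 none. Symbols were matched by gene ID to RefSeq (GRCm38.p6) for 34741 of them. Signals were multiplied by factors of 1.11, 0.918 and 0.986 so that all arrays shared one mean with the lowest and highest 2% of signals trimmed. The number of arrays limits the precision.

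The members and lists were chosen with earlier results of these data known. All members are named; of each pathway list, up to 3 genes with the largest and up to 3 with the smallest ratios past 2-fold are named, with *Egf* and *Erbb4* and the 5 genes nearest to *Hbegf* by Euclidean distance in the log2 ratios to before fusion. *Adam17* and *Rhbdf1* were named after their values were seen. The share of all genes past 2-fold is given beside the counts of the members and of each list with a gene past 2-fold, for the main setting alone. The steps were checked on simulated data with changes well past 2-fold in bright probe sets. That check does not cover signals near the floor or ratios near 2-fold. Python 3.11.15 with numpy 2.4.6 and pandas 2.3.3 was used.

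The alternatives were other scalings (one median, quantile normalization, hybridization controls, poly-A controls, signals as deposited), other floors, the median over probe sets, and thresholds of 1.5-fold and 4-fold. One common floor was added after seeing the data.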

Additional observations from a re-analysis of the deposited data

How the results depend on the processing

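Over the alternatives run, 224 of 240 values of the members' log2 ratios moved by less than the SD between probe sets, 16 moved further and none that was past 2-fold changed sign. Much of this was set in advance. Scaling by a single factor per array shifts all ratios above the floor in a comparison by the same amount, here under that SD. Leaving out or moving the floor leaves ratios of signals above it unchanged. Settings that gave no ratio are not among the 240. The shares of all genes and probe sets past 2-fold are given for the main setting alone. Counts under the other settings have no such share beside them. They show how far the calls depend on the processing and are no result about the members or lists. The count of members past 2-fold higher during than before fusion was 2. It was 1 with scaling to one median, quantile normalization, the poly-A controls, the floor added, the median over probe sets or a 4-fold threshold. It was 4 with no floor. With the hybridization controls, the signals as deposited or a 1.5-fold threshold it was 3, with *Btc* added. *Hbegf*, at 4.28, was the member past 4-fold. For after over before fusion, the count of 3 was 1 at a 4-fold threshold and 4 with no floor, which adds *Ereg*. It was 2, without *Tgfa*, with quantile normalization, the hybridization controls, the poly-A controls, the floor added or the median over probe sets, where *Tgfa* has a bound of at least 1.97. For after over during fusion, the count of 1 higher was 0 at 4-fold, and the count of 0 lower was 1 with no floor and 1 at 1.5-fold.

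By probe set, the 2 higher during than before fusion were 1 with one median, quantile normalization, the poly-A controls, the floor added or 4-fold. They were 5 with no floor and 3 with the hybridization controls, the signals as deposited or 1.5-fold. The 3 higher after than before were 6 with the signals as deposited, 5 with no floor, 1 at 4-fold and 6 at 1.5-fold. They were 4 with one median and 2 with the hybridization or the poly-A controls. The 2 higher after than during were 1 with a floor at the array's median, 1 with one common floor and 0 at 4-fold. They were 3 with one median, quantile normalization or 1.5-fold. The 0 lower were 1 with no floor and 1 at 1.5-fold. The cause was not tested.

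Scaling moved the median log2 ratio of all genes for during over before fusion from -0.02 to 0.25 with the signals as deposited and to -0.31 with the poly-A controls, and for after over before from -0.07 to 0.10 and -0.47. The count of higher ERK-induced genes stayed within 1.5 times in each alternative run, while the 4 higher shedding genes after fusion were 8 with the signals as deposited and the 4 during fusion were 2 with the poly-A controls. Signals near the floor limit *Ereg*, *Nrg1* and *Epgn* most. No paired analysis was possible because each stage has 1 array.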

Other observations

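*Epgn*, *Ereg*, *Areg* and *Btc* follow one another on mouse chromosome 5 in the RefSeq gene order, and their neighbours were read for their place alone. *Parm1*, next after *Btc*, had scaled signals of 132.5 before, 258 during and 223 after fusion, with ratios to before fusion of 1.95 and 1.68. *Mthfd2l*, next before *Epgn*, had signals of 342, 374 and 234, with ratios of 1.09 and 0.6845. The chemokine gene *Cxcl2*, next before that, was under the floor before fusion, at 4.01, and had signals of 16.9 during and 20.9 after fusion. As scaled here, *Parm1* and *Mthfd2l* were within 2-fold of the stage before fusion. *Cxcl2* and *Ereg* have only lower bounds, at least 1.08 and at least 1.06 after fusion, so whether they passed 2-fold is not known.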
